A study of Homo sapiens with 60 samples.

Results

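Rapamycin added to doxorubicin was compared with doxorubicin alone in SKBR3, a human breast adenocarcinoma line that overexpresses the receptor HER2 (ERBB2). The comparison held 10 of the 60 arrays of the study, taken by cell line and treatment from the sample titles, with 5 arrays for each treatment and every gene with a value. The tested arrays came from SKBR3 cells given 20 nM rapamycin with 30 nM doxorubicin, and their reference arrays from SKBR3 cells given 30 nM doxorubicin alone. Both groups thus carried the same dose of doxorubicin. Other arrays of the study used below were SKBR3 with 20 nM rapamycin alone, SKBR3 with DMSO vehicle, and the combined and doxorubicin groups of HB4a, a mammary epithelial line, and of C5.2, its HER2-overexpressing derivative. SKBR3 is 1 established line, the length of treatment is not given in the sources used here, and SKBR3 was grown without the insulin and hydrocortisone that the HB4a and C5.2 medium contained. The design text calls the 5 arrays of a group independent experiments, numbered 1, 2, 3, 4 and 6, and arrays of 1 number were treated as a pair.

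Rapamycin binds the immunophilin FKBP12 (FKBP1A), and the complex inhibits mTORC1, the kinase complex that couples nutrient and growth factor signals to protein, lipid and nucleotide synthesis and restrains autophagy. mTORC1 also feeds back on PI3K and AKT signalling below receptors such as HER2, and AKT in turn holds FOXO transcription factors out of the nucleus. Doxorubicin, an anthracycline, poisons topoisomerase II (TOP2A) as it cuts DNA. Cells outside the division cycle transcribe few of the genes of replication and mitosis, many of which are controlled by E2F factors and by the DREAM and MuvB complexes through cell cycle homology (CHR) and CCAAT elements in their promoters.

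Levels below are log2 probe set values, so that a change of 1 is 2-fold, and a gene is said to have risen or fallen where limma with the experiment number as a block gave an adjusted p (Benjamini-Hochberg, every tested gene) below 0.05. Of 5559 genes tested, 784 rose (14.1% of those tested) and 1437 fell (25.8%) with rapamycin added, together 2221 (40.0%). Most of these changes were small: the median size among the 2221 genes was 0.42, and 74 genes changed 2-fold or more, 14 of them upward and 60 downward. Signs were the same in all 5 pairs for 1985 of the 2221. The arrays of the groups did not overlap, with rapamycin higher, for 271 genes (4.87%) and, with rapamycin lower, for 502 (9.03%). Without the pairing 1042 genes passed (18.7%), 339 upward (6.10%) and 703 downward (12.6%), and all 1042 were among the 2221. The split by direction depended on scaling. Among called genes 64.7% fell as deposited, 72.3% after centring each array on its median and 46.7% after quantile normalization, while the median change over all genes tested was -0.07, -0.11 and 0.01 in that order.

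A sign of RNA quality moved with the groups. The log2 difference between the 3′ and 5′ control probe sets of ACTB was 2.82 ± 0.38 on the rapamycin plus doxorubicin arrays and 1.88 ± 0.42 on the doxorubicin arrays (SD, n = 5 each), and that of GAPDH was 0.62 ± 0.08 and 0.40 ± 0.09. With the ACTB difference as a covariate, an alternative chosen after seeing the data, 33 genes passed, 10 upward and 23 downward. The ACTB difference was greater with rapamycin added in every pair, so this fit cannot fully separate it from treatment. Beyond this covariate its part in the results was not tested, and values by experiment are given beside the cell cycle genes. Most luminal markers were high: KRT8, KRT18, KRT19, EPCAM, ERBB2 and ERBB3 were between 8.02 and 11.80 on all 10 arrays, and SPDEF between 7.26 and 9.14. Others were lower: FOXA1 was between 5.2 and 6.3 and GATA3 between 4.12 and 5.31. GATA3 did not pass the filter on low values, and CDH1 stayed at or under 1.35. No basal or mesenchymal marker with a value (10 of 11 on the list) and no leukocyte or endothelial marker (8 of 9) passed the filter on low values; their highest single levels were 4.73 and 3.83 on rapamycin plus doxorubicin arrays, against 5.04 and 3.60 on doxorubicin arrays. The array mean of the basal markers was 1.86 to 1.98 with rapamycin added and 1.75 to 1.95 without it.

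**Figure D1:**
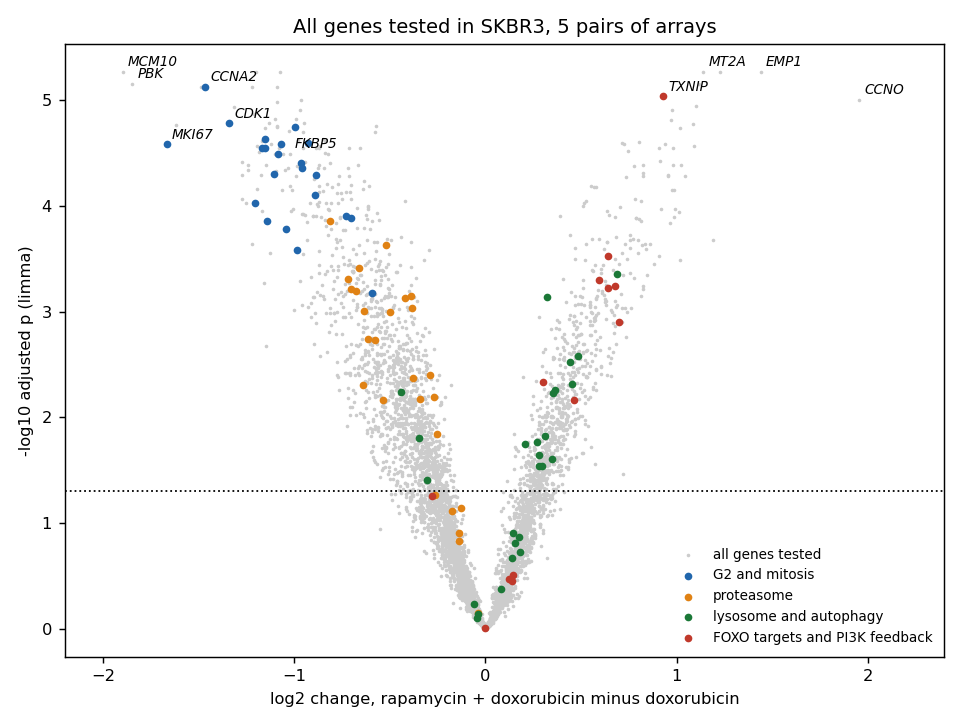
Change of each of the 5559 genes tested (horizontal axis, log2, rapamycin plus doxorubicin minus doxorubicin) against its limma adjusted p (vertical axis, -log10; the dotted line marks 0.05), with 4 gene lists in colour. Genes of G2 and mitosis and called proteasome genes lie on the left, and called FOXO targets and most called lysosomal genes on the right.

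The clearest group was the machinery of cell division. All 22 tested genes of the G2 and mitosis list fell, with a median change of -1.05 against -0.07 over all genes tested. Of the 33 genes on this list, 11 did not pass the filter on low values, and 3 of the 22 passed it through the doxorubicin arrays alone, so the count was repeated without the filter: then 33 of 33 fell, where 11.0% of 19775 genes fell. With the filter set to a level of 7 on 5 arrays, 12 of 12 fell. Without the pairing 21 of 22 fell.

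MKI67, the proliferation antigen Ki-67, had levels of 2.88, 4.55, 4.55, 4.84 and 4.42 on the rapamycin plus doxorubicin arrays, against 5.16, 5.65, 6.01, 6.51 and 6.25 on the doxorubicin arrays, in the order of experiments 1, 2, 3, 4 and 6. The groups did not overlap, and the array of experiment 1 was low in both. MKI67 is one of the 3 genes of the list that passed the filter through the doxorubicin arrays alone, so that only a lower level with rapamycin could be seen, and without the filter its adjusted p was 1.69e-06. Its change was -1.67 ± 0.15 (SE; limma adjusted p = 2.62e-05), or 3.18-fold lower, and a second probe set gave -1.79. CCNA2, the cyclin A2 that drives S phase and entry into mitosis, read 5.47, 5.21, 4.97, 5.25 and 4.76 with rapamycin added and 7.07, 6.33, 6.42, 6.79 and 6.37 without it. Every array with rapamycin lay below every array without it, and the change was -1.46 ± 0.10 (limma adjusted p = 7.48e-06). CDK1, the kinase that triggers mitosis, read 7.28, 6.85, 7.15, 7.53 and 6.07 against 8.77, 7.92, 8.18, 8.88 and 7.83 with doxorubicin alone. Its groups did not overlap either, and it fell by 1.34 ± 0.11 on the log2 scale (limma adjusted p = 1.66e-05), while its other 2 probe sets gave -1.83 and -1.74. TOP2A, the target of doxorubicin and itself a gene of the G2 list, read 6.48, 6.90, 7.20, 8.05 and 7.05 against 8.31, 7.6, 8.16, 9.15 and 8.47 with doxorubicin alone. Here the groups overlapped, since experiment 4 was high in both, yet each pair was lower with rapamycin, and the change was -1.21 ± 0.14 (limma adjusted p = 9.48e-05).

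**Figure D2:**
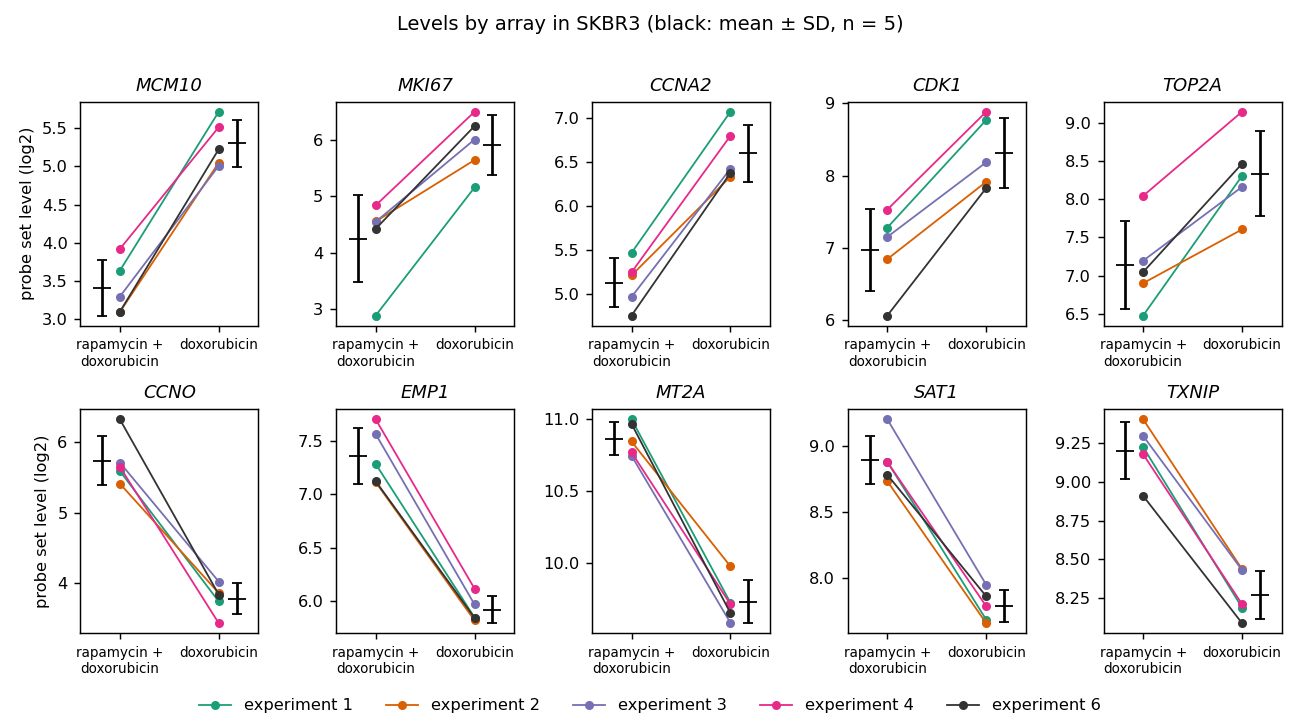
Probe set levels (log2) of 10 genes on each SKBR3 array, with rapamycin plus doxorubicin on the left and doxorubicin on the right of each panel; lines join arrays of 1 experiment, and black bars give the mean ± SD of 5 arrays. The 5 genes of the upper row are lower in every pair with rapamycin added, and the 5 genes of the lower row are higher in every pair.

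The RNA quality difference varied between experiments, and its values are set beside those of the mitotic list. The median change of its 22 tested genes was -1.16, -0.84, -0.98, -1.10 and -1.18 in experiments 1, 2, 3, 4 and 6. In the same order the ACTB 3′ to 5′ difference was 0.759, 0.0517, 1.448, 1.061 and 1.405 greater with rapamycin added. With the ratio as a covariate the list's median was -0.89, and 1 of its 22 genes passed. In bulk RNA, fewer cells in a phase and less RNA per cell cannot be told apart.

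Promoters of these genes are shown because many members fell together. RefSeq promoter windows (GRCh38.p14, from 250 bases before to 50 after the start) were found for 18 of the 22 genes. Capitals mark the CHR element (TTTGAA or TTCGAA) and the CCAAT box (CCAAT), each searched on both strands.
MKI67 (chr10:128126374-128126673, minus strand): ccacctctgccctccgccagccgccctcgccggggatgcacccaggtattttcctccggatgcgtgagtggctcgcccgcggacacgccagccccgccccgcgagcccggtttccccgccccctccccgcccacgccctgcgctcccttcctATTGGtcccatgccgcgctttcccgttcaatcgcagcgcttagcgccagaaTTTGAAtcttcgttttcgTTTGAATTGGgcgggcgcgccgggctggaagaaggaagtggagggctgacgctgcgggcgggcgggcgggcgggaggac
CDK1 (chr10:60778081-60778380, plus strand): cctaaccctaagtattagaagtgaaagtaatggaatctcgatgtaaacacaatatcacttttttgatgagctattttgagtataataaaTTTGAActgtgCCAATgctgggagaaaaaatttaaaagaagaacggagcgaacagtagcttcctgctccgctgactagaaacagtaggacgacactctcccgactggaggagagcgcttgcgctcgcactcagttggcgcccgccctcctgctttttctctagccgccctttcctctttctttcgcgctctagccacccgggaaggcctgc
CCNA2 (chr4:121823834-121824133, minus strand): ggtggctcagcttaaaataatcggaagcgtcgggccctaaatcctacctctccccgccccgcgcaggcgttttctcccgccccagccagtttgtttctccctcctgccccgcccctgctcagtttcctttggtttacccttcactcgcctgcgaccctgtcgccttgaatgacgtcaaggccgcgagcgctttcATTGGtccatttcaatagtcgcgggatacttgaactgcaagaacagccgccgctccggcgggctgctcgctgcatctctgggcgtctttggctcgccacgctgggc
The MKI67 window held 4 matches, of which one CHR element and one CCAAT box overlap, the CDK1 window 2, and the CCNA2 window 1, a CCAAT box. A CHR match was present in 14 of the 18 windows (77.8%), against 16.6% of 27305 promoters and 10.5% of those of tested genes. A CCAAT match was present in 16 (88.9%), against 35.7% of all promoters and 38.4% of those of tested genes. Both were present in 13 (72.2%), against 6.58% and 4.72%. The list was chosen by gene function and all 22 fell, so these shares do not bear on the change with rapamycin. A match describes letters in the window and is not a test of binding. Only the forms of the CHR element given above were searched, so a window without a match, such as that of CCNA2, may hold another form.

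Genes of DNA replication fell as well. Of 33 tested genes 27 fell and none rose, with a median of -0.60, where 25.8% of all genes tested fell. Without the filter 32 of 39 fell, where 11.0% of all genes fell. MCM10, which helps load the replisome at origins, had the largest fall among the genes tested. It passed the filter through the doxorubicin arrays alone, as did CDC45. It read 3.63, 3.09, 3.29, 3.92 and 3.09 with rapamycin added and 5.72, 5.05, 5.01, 5.52 and 5.23 with doxorubicin alone. No array of one group reached the other, and the change was -1.90 ± 0.12 (limma adjusted p = 5.43e-06), a level 3.73-fold lower. RRM2, the regulated subunit of the ribonucleotide reductase that makes deoxynucleotides, fell by 1.20 on the log2 scale to a mean of 8.21, against 9.41 with doxorubicin alone, and CDC45, a part of the replicative helicase, fell by 1.13. GMNN, whose product geminin blocks relicensing of origins, averaged 5.40 with rapamycin added and 6.71 without it.

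Other cell cycle genes were among the largest falls. PBK, a mitotic kinase, averaged 4.25 ± 0.53 with rapamycin added and 6.10 ± 0.45 without it (SD, n = 5 each), a change of -1.85 ± 0.12. FBXO5, an inhibitor of the anaphase-promoting complex, changed by -1.62, SPC25, a kinetochore protein, by -1.49, SMC4, a condensin subunit, by -1.27, and ANLN, a scaffold of cytokinesis, by -1.24. HJURP, the chaperone that loads the centromeric histone CENP-A, changed by -1.25; FBXO5, SPC25 and HJURP passed the filter through the doxorubicin arrays alone. UHRF1, which maintains DNA methylation behind the fork, changed by -1.22 and FIGNL1, an ATPase, by -1.27. The damage response list moved the same way: 10 of 11 tested genes fell and none rose, with a median of -0.47. Over all genes tested 25.8% fell and 14.1% rose. FANCI, which acts in crosslink repair, fell by 1.24 on the log2 scale and BARD1, the partner of BRCA1, by 1.0. Without the filter 19 of 25 genes of that list fell, and without the pairing 5 of the 11. Of 8 tested targets of p53 none rose and 1 fell, TRIAP1, named after its value was seen (-0.34). Without the filter 1 of 27 rose and 5 fell. The p53 targets CDKN1A, MDM2 and GDF15 did not pass the filter, with means of 4.69, 4.74 and 2.78 with rapamycin added, against 4.84, 5.10 and 2.25 with doxorubicin alone.

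**Figure D3:**
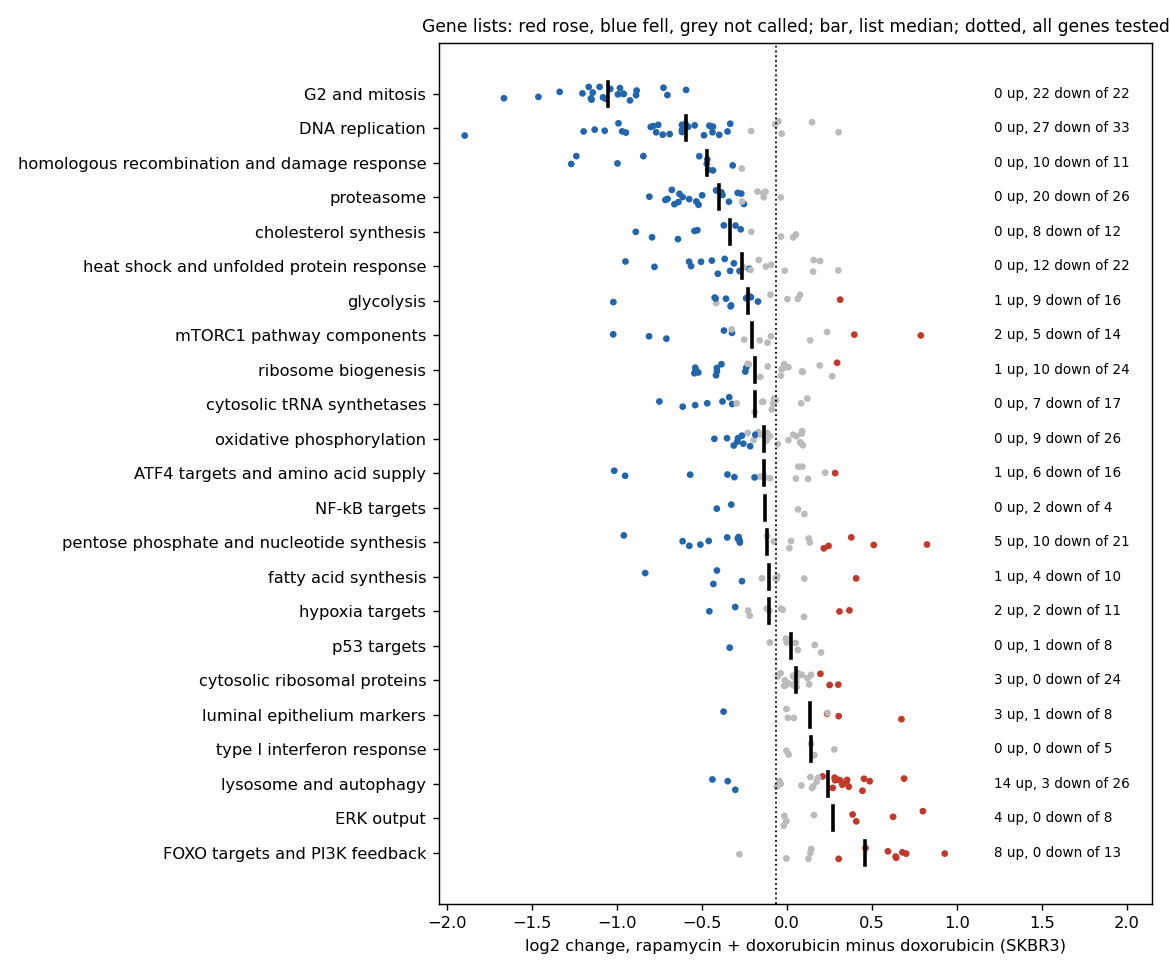
Log2 change (rapamycin plus doxorubicin minus doxorubicin) of every tested gene of 23 lists, red where it rose, blue where it fell and grey where it did not pass; black bars are list medians, the dotted line is the median over all genes tested, and counts stand on the right. By median, G2 and mitosis, DNA replication, the damage response, the proteasome and cholesterol synthesis lie furthest left, and FOXO targets furthest right.

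Genes of protein turnover and folding were the next group. Of 26 tested proteasome genes 20 fell and none rose, with a median of -0.40, where 25.8% of all genes tested fell. PSMC3, an ATPase of the regulatory particle, read 7.0, 6.80, 6.94, 6.71 and 7.14 with rapamycin added and 7.99, 7.33, 7.86, 7.75 and 7.71 with doxorubicin alone. Its groups did not overlap, and the change was -0.81 ± 0.10 (limma adjusted p = 0.000141). The lid subunits PSMD14, a deubiquitinase, and PSMD12 changed by -0.72 and -0.70. Of 22 heat shock and unfolded protein response genes 12 fell and none rose, led by the chaperones HSPH1 (-0.95), HSP90AA1 (-0.78) and HSPD1 (-0.58). After quantile normalization 3 genes of that list rose and 10 fell.

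Biosynthetic genes fell in part, where 25.8% of all genes tested fell and 14.1% rose. Of 12 tested genes of cholesterol synthesis 8 fell and none rose, with a median of -0.34. IDI1, an isomerase of the isoprenoid pathway, averaged 6.19 ± 0.40 with rapamycin added and 7.08 ± 0.33 without it (SD, n = 5 each), INSIG1, which retains SREBP in the endoplasmic reticulum, changed by -0.80, and the sterol isomerase EBP by -0.64. In fatty acid synthesis 4 of 10 fell, among them the elongase ELOVL6 (-0.84), ACACA (acetyl-CoA carboxylase, -0.43) and ME1 (malic enzyme, -0.41), while SREBF1, which encodes the SREBP-1 factors, rose by 0.41. The rise of SREBF1 had an adjusted p of 0.0151 in the paired limma fit and 0.308 without the pairing, and the doxorubicin array of experiment 1 was low (6.74). 

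Of 16 tested ATF4 targets and genes of amino acid supply 6 fell and 1 rose (median -0.13). Over all genes tested 25.8% fell and 14.1% rose. The largest falls of the list were in serine synthesis. PHGDH, which commits glycolytic carbon to serine, read 4.53, 4.89, 4.59, 4.50 and 5.11 with rapamycin added and 5.81, 5.96, 5.83, 5.46 and 5.66 without it, with no overlap. It fell by 1.02 ± 0.12 on the log2 scale (limma adjusted p = 0.000112), and PSAT1, the next enzyme of the pathway, by 0.95. ASNS, asparagine synthetase, changed by -0.57, and TRIB3, a pseudokinase, by 0.28, a call lost with the mean of its probe sets (0.10), without the pairing (adjusted p = 0.217) and without experiment 1 (0.141), 3 (0.0661) or 6 (0.101). Of 17 cytosolic tRNA synthetases 7 fell and none rose, with TARS1 at -0.75, IARS1 at -0.61 and EPRS1 at -0.54. Without the pairing 4 of them fell. EPRS1 did not pass without the pairing (limma adjusted p = 0.0921) or without experiment 6 (0.0914).

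Counts for ribosome genes stand beside 25.8% of all genes tested that fell and 14.1% that rose. Of 24 tested genes of ribosome biogenesis 10 fell and 1 rose (median -0.19). DDX21, NOP16 and NOLC1, all nucleolar proteins, each changed by between -0.55 and -0.54. With the mean of its probe sets NOP16 was at -0.18 and did not pass (limma adjusted p = 0.0848). DDX21 did not pass without the pairing (limma adjusted p = 0.124) or without experiment 6 (0.0754). Without the pairing 4 of the list fell. POLR1E, a subunit of RNA polymerase I, was the 1 that rose, by 0.29 (limma adjusted p = 0.0377), a call lost without any one experiment. Of 24 cytosolic ribosomal protein genes, none fell and 3 rose, near the 14.1% of all genes tested that rose. The rises were small, RPL14 by 0.30, RPL3 by 0.25 and RPL12 by 0.20, with a median of 0.05 for the list.

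Energy and nucleotide metabolism showed smaller changes. Of 16 glycolysis genes 9 fell and 1 rose (median -0.23), where 25.8% of all genes tested fell and 14.1% rose. ALDOC, an aldolase, had the largest fall there, to a mean of 5.01 against 6.03 with doxorubicin alone (-1.02 ± 0.11). TPI1 (-0.43) and LDHA (-0.42) followed. The glucose transporter gene SLC2A1 rose by 0.31 but did not pass without the pairing (limma adjusted p = 0.142). Of 11 hypoxia targets 2 rose (BNIP3L and MXI1) and 2 fell (P4HA1 and FAM162A), where 14.1% of all genes tested rose and 25.8% fell. Without the pairing 1 fell and none rose. The call of MXI1 was also lost without the filter, after centring and without experiment 2, 3 or 4. Of 21 genes of the pentose phosphate pathway and nucleotide synthesis 10 fell and 5 rose, against 25.8% and 14.1% of all genes tested. Without the pairing 5 fell and 3 rose, against 12.6% and 6.10%. PPAT, the committed step of purine synthesis, changed by -0.96, RPE, a pentose phosphate epimerase, by -0.62 and CTPS1, which makes CTP, by -0.58. RPE did not pass without the pairing (limma adjusted p = 0.115). In the other direction the lactonase PGLS changed by 0.82, IMPDH2, the first step to guanine nucleotides, by 0.51 and ADSL by 0.38, a call lost with its second probe set (0.23). Of 26 oxidative phosphorylation genes 9 fell and none rose, where 25.8% of all genes tested fell. The largest falls were those of ATP5MC1 (-0.43), UQCRC1 (-0.35) and NDUFV1 (-0.31). The call of NDUFV1 was lost with the mean of its probe sets (-0.13) and that of UQCRC1 without the pairing (limma adjusted p = 0.0827). Without the pairing 5 genes of the list fell.

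Targets of FOXO factors rose. Of 13 tested FOXO targets and PI3K feedback genes 8 rose and none fell, with a median of 0.46, and 12 of 27 rose without the filter, where 5.87% of all genes rose. TXNIP, an inhibitor of thioredoxin and of glucose uptake, read 9.22, 9.40, 9.29, 9.18 and 8.91 with rapamycin added and 8.19, 8.44, 8.43, 8.21 and 8.09 with doxorubicin alone. The groups did not overlap, and the rise was 0.93 ± 0.07 (limma adjusted p = 9.22e-06), with its other 2 probe sets at 0.89 and 0.93. KLHL24, a ubiquitin ligase adaptor, rose by 0.70, though it passed the filter through the rapamycin plus doxorubicin arrays alone, and HBP1, a transcriptional repressor, rose by 0.68. IRS2, the insulin receptor substrate, did not pass the filter (1.89 with rapamycin added, 1.69 without it).

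Lysosomal and autophagy genes rose more often than they fell: 14 of 26 tested rose and 3 fell, with a median of 0.24. Over all genes tested 14.1% rose and 25.8% fell. CLCN7, a lysosomal chloride transporter, read 6.39, 6.46, 6.58, 6.37 and 6.71 with rapamycin added and 5.35, 6.03, 5.94, 5.75 and 6.0 without it, with no overlap (0.69 ± 0.10, limma adjusted p = 0.000441). RRAGD, a Rag GTPase, rose by 0.49, and TPP1, a lysosomal peptidase, by 0.45. TPP1 did not pass without the pairing (limma adjusted p = 0.135), and its doxorubicin array of experiment 1 was low (5.34). GLA, which encodes alpha-galactosidase, and the proton pump genes ATP6V1A and ATP6V0D1 were the 3 that fell, by 0.44, 0.35 and 0.31 on the log2 scale. The call of ATP6V1A was lost without the pairing (limma adjusted p = 0.0606), after quantile normalization (0.0529) and without experiment 6 (0.0515). That of ATP6V0D1 was lost without the pairing (0.0898), without the filter (0.055) and after quantile normalization (0.127). It was also lost without experiment 2, 3 or 4. Without the pairing 6 of the list rose and 1 fell.

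Of 14 tested components of the mTORC1 pathway 2 rose and 5 fell, near the shares of all genes tested (14.1% and 25.8%). DEPTOR, an inhibitor bound to mTOR, read 6.06, 6.14, 6.05, 6.02 and 5.93 with rapamycin added and 5.2, 5.36, 5.53, 5.19 and 4.99 without it, a rise of 0.79 ± 0.09 (limma adjusted p = 0.000131) with no overlap. FKBP5, an immunophilin and glucocorticoid target that also binds rapamycin, averaged 5.37 against 6.40 with doxorubicin alone (-1.02 ± 0.10). DDIT4 (REDD1), an inhibitor of mTORC1, changed by -0.71, and EIF4E, the cap-binding translation factor, by -0.81, with its second probe set at -0.39. FKBP1A, the partner through which rapamycin acts, was at 7.47 ± 0.18 with rapamycin added and 7.57 ± 0.22 without it (SD, n = 5 each) and did not pass (limma adjusted p = 0.382); its 3 other tested probe sets had the opposite sign, between 0.02 and 0.39. MTOR and RPTOR did not pass the filter, with means of 3.94 and 3.96 with rapamycin added, against 4.08 and 3.86.

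Of 8 tested genes of ERK output 4 rose and none fell (median 0.27), where 14.1% of all genes tested rose and 25.8% fell. EGR1, an immediate early factor, read 5.66, 8.63, 6.23, 6.09 and 6.03 with rapamycin added and 4.72, 7.73, 5.15, 5.43 and 5.62 without it. Experiment 2 was far above the others in both groups, and the groups overlapped. The pairwise rise was 0.80 ± 0.11 (limma adjusted p = 0.000279), which did not pass without the pairing (0.367). DUSP4, an ERK phosphatase, rose by 0.62 and IER3 by 0.41, and without the pairing 1 gene of the list rose. None of 5 interferon response genes passed in either direction, and of 4 NF-kB targets 2 fell, NFKBIA (-0.41) and NFKB1 (-0.33), named after their values were seen.

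Luminal markers differed little: 3 of 8 tested rose and 1 fell, where 14.1% of all genes tested rose and 25.8% fell. SPDEF, a luminal transcription factor, rose by 0.67 and ERBB3 by 0.30, while keratin 8 (KRT8) fell by 0.37. ERBB2 read 11.53, 11.68, 11.73, 11.64 and 11.72 with rapamycin added and 10.85, 11.59, 11.59, 11.49 and 11.59 without it. The array of experiment 1 with doxorubicin alone was the low one. The rise of 0.24 ± 0.08 passed in the paired fit (limma adjusted p = 0.0347) but not without the pairing (0.20), without experiment 1, where the change was 0.12 (0.0708), or without experiments 3 (0.0525) or 6 (0.0686).

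The largest rise belonged to CCNO, a cyclin-like gene known from the formation of multiciliated cells. It read 5.59, 5.41, 5.71, 5.65 and 6.32 with rapamycin added and 3.74, 3.86, 4.02, 3.43 and 3.84 with doxorubicin alone. The groups were far apart, and the rise of 1.95 ± 0.14 (limma adjusted p = 9.99e-06) was 3.87-fold. CCNO and, among the rises below, SRARP passed the filter through the rapamycin plus doxorubicin arrays alone, and without the filter the adjusted p of CCNO was 4.05e-07. EMP1, an epithelial membrane protein, averaged 7.36 ± 0.27 with rapamycin added and 5.92 ± 0.13 without it, a rise of 1.44 (SD, n = 5 each), and its second probe set gave 1.33. SAT1, which acetylates polyamines for breakdown and export, rose by 1.11, and its other 2 probe sets gave 0.94 and 1.11. SCGB1D2, a secretoglobin of breast epithelium, rose by 1.19, LETMD1 by 1.10, the histone H2A gene H2AC25 by 1.02, TEX19 by 1.02, SRARP, a regulator of steroid receptors, by 1.01 and RBPMS, an RNA-binding protein, by 0.99. The transcripts EPB41L4A-AS1, which hosts a small nucleolar RNA, and LINC01003 rose by 1.23 and 1.04. The array does not show whether probes of EPB41L4A-AS1 also take up its sense partner, and that was not tested.

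Metallothioneins, small proteins that bind zinc and copper, rose together. MT2A read 11, 10.84, 10.75, 10.77 and 10.97 with rapamycin added and 9.72, 9.97, 9.58, 9.71 and 9.65 without it. The groups did not overlap, and the rise was 1.14 ± 0.07 (limma adjusted p = 5.43e-06). MT1F, MT1X and MT1H rose by 1.09, 1.08 and 1.02, and 7 of 7 tested metallothionein genes rose, by 0.72 to 1.14, a set chosen after its values were seen. These paralogs are nearly identical, and their probe sets can take up each other's RNA, so which members rose is uncertain. The promoter of MT2A is shown because it carries matches to the core of the metal response element (TGCACNC or TGCGCNC, both strands, in capitals).
MT2A (chr16:56608334-56608633, plus strand, GRCh38.p14, RefSeq): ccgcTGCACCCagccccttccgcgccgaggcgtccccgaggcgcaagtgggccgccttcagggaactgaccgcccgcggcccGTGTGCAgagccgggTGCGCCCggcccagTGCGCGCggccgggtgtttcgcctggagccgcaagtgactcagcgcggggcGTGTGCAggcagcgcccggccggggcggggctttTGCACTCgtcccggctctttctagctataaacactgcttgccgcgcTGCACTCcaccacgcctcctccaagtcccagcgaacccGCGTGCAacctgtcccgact
This window held 8 matches, and 3 of 3 metallothionein promoters found held at least 1, against 29.3% of all promoters and 41.5% of those of tested genes.

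The change given by rapamycin was then set beside the one it gave without doxorubicin, from the 5 rapamycin and 5 vehicle arrays of SKBR3, which share no array with the 10 above. One of these vehicle arrays stood apart: the mean of 10 basal and mesenchymal markers was 3.93 on the vehicle array of experiment 3 and 1.62 to 1.94 on the other 4, against 7.97 to 8.02 on HB4a vehicle arrays. The mixed array is in no value given above. Rapamycin alone changed 2513 of 6020 genes (41.7%) in the fit of all 20 SKBR3 arrays. Across 5559 genes, which are not independent replicates, the change with doxorubicin and the change without it had a Pearson correlation of 0.901 and a Spearman correlation of 0.882. Signs were the same for 2200 of the 2221 called genes (99.1%), where 84.4% of all genes tested had the same sign, and 1692 genes were called with the same sign in both and 0 with opposite signs. Without the mixed vehicle array the values were 0.888, 0.863, 2189 genes (98.6%), 1531 and 1.

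A test of the difference of these changes found no gene: 0 of 6020 passed (limma adjusted p, lowest 0.0606), with 337 (5.6%) at an unadjusted p under 0.05 and a median standard error of 0.13. Without the mixed vehicle array, or without any one experiment, 0 passed as well, and after quantile normalization 3 did, chosen by that fit (CDC20, FBXO32 and H2AC6). This does not show that the changes were alike, only that no difference passed. CCNO changed by 1.90 ± 0.15 without doxorubicin (difference 0.06 ± 0.21), EMP1 by 1.34, CCNA2 by -1.59, CDK1 by -1.54, MKI67 by -1.55 and DEPTOR by 0.94. MT2A changed by 0.77 ± 0.10 without doxorubicin, 0.37 ± 0.15 less than with it (limma adjusted p = 0.835). All 27 tested G2 and mitosis genes fell with rapamycin alone, with medians of -1.50, -1.46, -1.31, -1.10 and -1.35 over 22 of them in experiments 1, 2, 3, 4 and 6. Here the ACTB 3′ to 5′ difference of rapamycin minus vehicle was 0.94, 0.06, -0.37, -0.33 and -0.05 in that order, and its part in these falls was not tested.

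**Figure D4:**
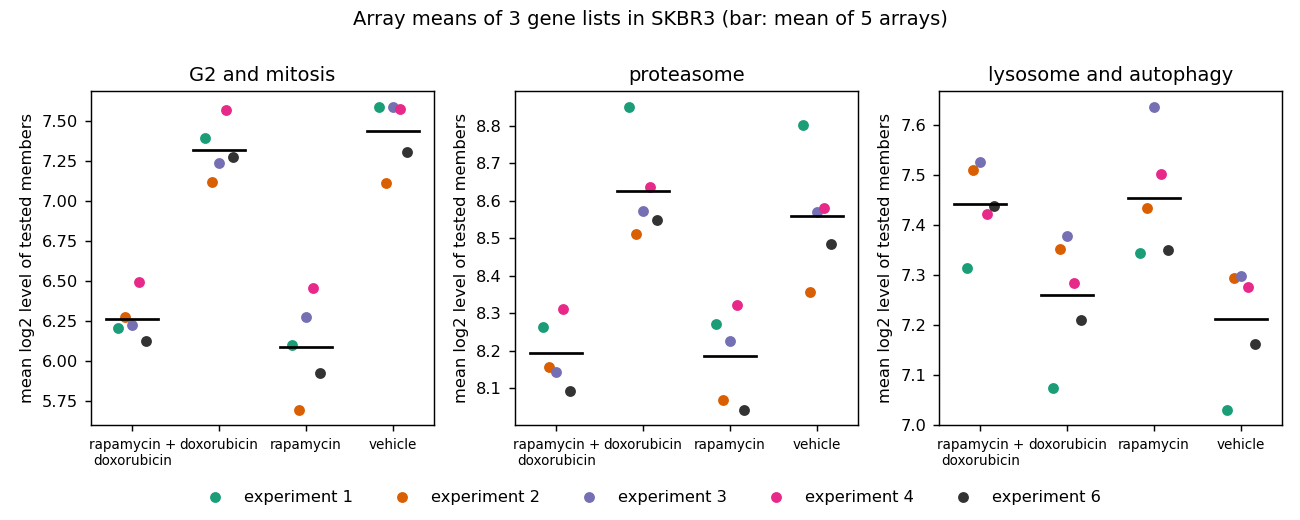
Mean log2 level of the tested genes of 3 lists (22 of G2 and mitosis, 26 of the proteasome, 26 of lysosome and autophagy) on each of 20 SKBR3 arrays, by treatment; points are arrays coloured by experiment and bars are means of 5 arrays. For G2 and mitosis the arrays with rapamycin lie at or below 6.49 and those without it at or above 7.11, with or without doxorubicin.

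SKBR3 differed from HB4a and C5.2 in the cell cycle genes. The difference of the change (SKBR3 minus the other line, 20 arrays a test, no pairing) passed for 339 of 6743 genes against HB4a (5.03%; 1.78% higher in SKBR3 and 3.25% lower) and 513 of 6813 against C5.2 (7.53%; 4.65% higher and 2.88% lower). With the experiment as a block these counts were 1558 and 2380. The block was left out because earlier work found that the numbers do not pair the HB4a arrays of the combined group. The pairing behind 1558 is therefore doubtful, and C5.2 was handled the same way as HB4a. Within HB4a, also without pairing, 3.50% of the 6743 genes changed (1.33% rose, 2.17% fell). Within C5.2 9.28% of the 6813 genes did (1.19% rose, 8.09% fell). Both shares came from the fits of 20 arrays, which include SKBR3. The share in SKBR3 without pairing, 18.7% of 5559 genes, came from a fit and filter of SKBR3 arrays alone. Probe sets were chosen by their level in SKBR3. The shares therefore cannot be compared as sizes of response. Line goes together with culture medium and seeding density, which cannot be told apart. Of the G2 and mitosis genes 25 of 25 tested were lower in SKBR3 than in HB4a by this test and 25 of 29 lower than in C5.2, with median differences of -1.39 and -1.35. Over the 25 genes tested in both fits the median change was -1.07 in SKBR3, 0.31 in HB4a and 0.10 in C5.2. Within HB4a 2 of 25 tested genes of the list passed as higher and 0 as lower. Within C5.2 0 of 29 passed in either direction. CDK1 changed by -1.34 in SKBR3 and by 0.87 ± 0.27 in HB4a, where it did not pass (limma adjusted p = 0.0883). The same test was passed by 11 of 35 DNA replication genes against HB4a and by 11 of 34 against C5.2, all lower in SKBR3.

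**Figure D5:**
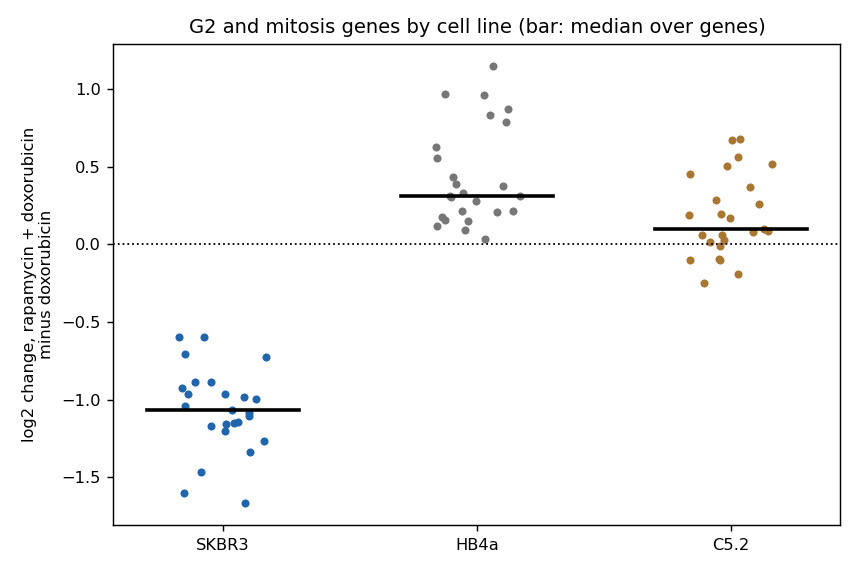
Log2 change (rapamycin plus doxorubicin minus doxorubicin) of 25 G2 and mitosis genes in SKBR3, HB4a and C5.2; points are genes and bars are medians over genes. All 25 are below 0 in SKBR3, all 25 above 0 in HB4a and 19 above 0 in C5.2. Within HB4a 2 of the 25 changes passed, and within C5.2 0 of 29 tested genes of the list passed.

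CCNO, the gene with the largest rise in SKBR3, changed by 1.95 there, by -0.01 in HB4a and by -0.30 in C5.2. The differences of 1.97 ± 0.22 and 2.25 ± 0.23 passed (limma adjusted p = 8.72e-06 and 1.40e-05). These tests reuse the SKBR3 arrays by which CCNO was picked, so they add no separate support. Among those it passed the filter through the rapamycin plus doxorubicin arrays alone. Its levels in HB4a and C5.2 are not given, and whether they were too low to show a change was not tested. AQP3, a channel for water and glycerol, rose by 0.40 in SKBR3, a call lost with its second probe set (0.17), and fell by 1.48 in HB4a and by 0.97 in C5.2. HILPDA, a lipid droplet protein, rose by 0.71 in SKBR3 and fell by 0.64 in HB4a. PRKCH, a protein kinase C, rose by 0.49 in SKBR3 and fell by 0.87 in C5.2. MT2A, whose change was 1.14 in SKBR3, 0.04 in HB4a and 0.26 in C5.2, differed from both (limma adjusted p = 1.03e-07 and 0.000631). ANP32E, a histone chaperone, and DLGAP5, a spindle protein, did not pass the filter over the 10 SKBR3 arrays, with means of 2.75 and 3.37 with rapamycin added and 4.70 and 4.97 without it, and their change was lower in SKBR3 than in HB4a by 2.59 and 2.39. TXNIP rose in all 3 lines, by 0.93, 0.51 and 0.71 in SKBR3, HB4a and C5.2, and no difference between lines passed (limma adjusted p = 0.166 and 0.433). LDHA fell in all 3, by 0.42, 0.46 and 0.49 on the log2 scale.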

How the data were processed

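RNA from 60 cultures was measured on Affymetrix arrays, 5 per line and treatment. Per the submitters' processing notes the authors made the deposited log2 values with RMA, whose version is not given. Their span of -0.6 to 13.08 points to base 2, and no scan date or batch is given. The number of arrays limits the precision. Titles name the vehicle group DRC, which the treatment text uses for both drugs; source names settled it as DMSO, and nM was read from them. Of 54675 probe sets 41091 had 1 symbol, 1801 several and 11777 were unnamed here. Each of 19775 genes was taken at its brightest probe set over the 10 arrays and tested where log2 passed 5 on at least 5 arrays. Some genes that meet the naming rule are not reported here.

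Tests used limma 3.58.1 in R 4.3.3 (empirical Bayes with trend, 2-sided, Benjamini-Hochberg under 0.05 over all genes tested). The comparison had the experiment number as a block, since numbers come from the titles and residuals of same-numbered arrays correlated at 0.687, 0.509, 0.508, 0.670 and 0.348. Line differences used 20 arrays with no block and the drug difference 20 SKBR3 arrays with it. On simulated data this comparison recovered 97% of 100 genes moved by 1 and 64% of 100 moved by 0.5, with 9 false calls in 5559. The simulated noise was independent between genes, and no RNA quality difference was put in. In the data 2221 genes were called, far more than were moved, so these rates need not hold there.

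Genes named are the 15 largest rises and 15 largest falls with 1 sign in 5 pairs, the 3 largest called in each direction of each list with 3 or more called and of each line difference, and ERBB2, CDKN1A, MDM2, GDF15, TOP2A, IRS2, MTOR, RPTOR and FKBP1A; a few others stand where they bear on a result. Members and the 25 lists were chosen with earlier results of these data known. Alternatives changed pairing, filter, probe set, scaling, variance prior, array weights and arrays in the fit.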

Additional observations from a re-analysis of the deposited data

Results flagged for a closer look

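Among 111 named genes, 1 array lay far from the other 4 of its group in 18 cases. Both groups of each gene were searched, and chance flags about 1 in 20 groups. The doxorubicin array of experiment 1 was low for RRM2 (9.18), SREBF1 (6.74), TRIB3 (8.23), TPP1 (5.34), DUSP4 (6.56), ERBB2 (10.85) and FKBP1A (7.18), and high for HBP1 (6.48). The rapamycin plus doxorubicin array of experiment 4 was high for PBK (5.17), SMC4 (7.28), EIF4E (6.07) and HSPD1 (10.49). That of experiment 1 was low for MKI67 (2.88) and BNIP3L (5.30), that of experiment 6 low for INSIG1 (4.16), and that of experiment 2 high for EGR1 (8.63). With doxorubicin alone EBP was low in experiment 6 (7.45) and RPL3 high in experiment 4 (11.71).

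Changes that differed between lines, SKBR3 minus HB4a, were 1.97 for CCNO, -2.28 for PBK, 1.88 for AQP3, 1.36 for HILPDA, -2.59 for ANP32E and -2.39 for DLGAP5. Against C5.2 they were 2.25 for CCNO, -2.19 for PBK, 1.37 for AQP3, -2.15 for ANP32E (-1.92 without experiment 6, where the adjusted p of 0.0678 did not pass), -2.16 for DLGAP5 and 1.36 for PRKCH. Members that differed from HB4a are counted by list, where 5.03% of all genes tested differed (1.78% higher in SKBR3, 3.25% lower). Lower in SKBR3 were 25 of 25 for G2 and mitosis, 11 of 35 for DNA replication and 3 of 12 for the damage response. For glycolysis 3 of 19 were higher. Of FOXO targets 4 of 18 differed, 1 higher and 3 lower. Against C5.2 7.53% of all genes tested differed (4.65% higher in SKBR3, 2.88% lower). There 25 of 29 were lower for G2 and mitosis, 11 of 34 for DNA replication and 3 of 12 for the damage response. For glycolysis 5 of 19 were higher, and for nucleotide synthesis 3 of 22. Of 18 mTORC1 components 2 were higher and 1 lower. Of 23 heat shock genes 1 was higher and 2 were lower.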

How the results depend on the processing

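The count of genes called (2221, 784 higher and 1437 lower) was 1042 (339 and 703) without the replicate block, 864 (301 and 563) with the filter at 7, 1373 (467 and 906) with the mean of all probe sets, 606 (165 and 441) with the second probe set, where fewer genes were tested, and 33 (10 and 23) with the ACTB 3′ to 5′ ratio as a covariate, chosen after seeing the data. Without the filter it was 3340, of which 2179 were lower. Leaving out 1 experiment gave 1525 to 2105 genes (514 to 793 higher, 1011 to 1312 lower); without experiment 3, 514 were higher. The difference from HB4a (339) was 1558 with the replicate block, 193 with the filter at 7 and 143 to 368 without 1 experiment, of which 179, 203, 161 and 143 without experiments 2, 3, 4 and 6. The difference from C5.2 (513) was 2380 with the replicate block, 239 with the filter at 7 and 103 to 608 without 1 experiment, of which 268, 106, 273 and 103 without experiments 1, 3, 4 and 6. The drug difference (0) was 3 after quantile normalization. FKBP1A, not called, turned from -0.09 to 0.10 with the mean of probe sets, 0.0897 with the second and 0.00156 after quantile normalization. Of 103 named genes tested, among them some not called such as FKBP1A, 19 lost their call without the pairing, 86 with the covariate and 4 after centring. The cause was not tested beyond the fewer genes or arrays. A design of 5 pairs limits small changes. On simulated data with far fewer genes moved, 64% of those moved by 0.5 were recovered, a rate that need not hold here.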
